A study of Mus musculus with 6 samples.

Results

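The differentiation keratins described here are the 8 genes Krt13, Krt4, Krt76, Krt78, Krt24, Krt84, Krt10 and Krt1, taken by gene symbol from the 18437 genes listed. They were measured by bulk RNA-seq in tongue tumours of C57BL/6 mice. LIGHT tumours grew from 4MOSC1-LIGHT cells, a mouse oral squamous cell carcinoma line made to overexpress LIGHT, a ligand of the TNF superfamily whose gene is Tnfsf14. Whether that line is 1 clone is not stated. Control tumours grew from 4MOSC1-con cells, for which the labels state no more than a control genotype. There are 3 libraries of each group, all from tumour tissue after orthotopic injection into the tongue. The labels do not tie a library to an animal, so p-values measure only the spread between these libraries, which may be technical. Levels are TPM, a share of all transcripts in a library that is corrected for transcript length. TPM keep no depth, so no counting interval can be given. Tnfsf14 was at 26.2, 25.9 and 23.9 TPM in the LIGHT libraries, against 0.66, 0.53 and 0.79 TPM in the control libraries, as the labels imply.

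Keratins are the intermediate filament proteins of epithelial cells, and a type I (acidic) keratin always polymerises with a type II (basic) partner. As stratified cells leave the basal layer they replace the basal pair Krt5 and Krt14 with a pair that depends on the tissue. Krt4 (type II) and Krt13 (type I) mark the layers above the base in soft, non-cornified mucosa such as the underside of the tongue. Krt1 (type II) and Krt10 (type I) mark the same layers in skin. Krt76 (type II) belongs to cornified oral mucosa such as the hard palate. Krt84 (type II) is a hair-type keratin that, in the mouse, is also made in the filiform papillae, the horny cones on the upper surface of the tongue. Krt24 (type I) and Krt78 (type II) are made above the basal layer. Normal tongue surface therefore expresses several of these genes, and a tongue tumour specimen can hold both tumour cells and host mucosa. In such bulk samples, fewer cells of a type and less RNA per cell cannot be told apart.

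By the GRCm38.p6 annotation the type I genes lie on chromosome 11, Krt13 from 100117327 to 100121566, Krt10 from 99385254 to 99397449 and Krt24 from 99279959 to 99285262. The type II genes lie on chromosome 15. Krt84 runs from 101525026 to 101532820, Krt1 from 101845426 to 101850786, Krt76 from 101884351 to 101892920, Krt4 from 101918535 to 101924735 and Krt78 from 101946001 to 101996624.

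All 8 genes reached 1 TPM in at least 3 libraries and so were among the 13167 genes tested with limma on log2(TPM + 1). Krt4 was higher in LIGHT tumours and the other 7 did not pass an adjusted p of 0.05. That is 1 of 8 higher and 0 of 8 lower (0 also at an unadjusted p under 0.05), where 17.7% of the 13167 genes passed as higher and 5.41% as lower. The count of members is therefore near the background. The median log2 fold change was 0.49 over the 8 members and 0.09 over all genes tested. The share of higher genes among all calls was 76.6% with the deposited TPM, 44.8% after trimmed-mean (TMM) scaling and 43.7% after quantile normalization. TMM scaling moved the median log2 fold change of all genes to -0.04.

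Krt13 was the most abundant member in every library. It was at 9761, 15575 and 15769 TPM in LIGHT tumours and at 10110.3, 10643 and 15543 TPM in control tumours. The groups overlapped, with LIGHT replicate 1 the lowest of all 6 libraries. The log2 fold change was 0.17 (SE 0.23, limma adjusted p = 0.628). Krt13 alone made up 19.7% to 32.5% of the summed TPM of the 51 keratin genes listed in LIGHT libraries, and 18.6% to 26.4% in control libraries.

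Krt4, the partner of Krt13 in mucosa, was at 4984, 7328 and 8438 TPM in LIGHT tumours, against 3134, 2746 and 4968 TPM in control tumours. The groups did not overlap, but the lowest LIGHT library and the highest control library lay close together. All 3 LIGHT libraries lay above all control libraries in 29.6% of the genes tested and below them in 11.6%. Mean Krt4 was 6917 ± 1764 TPM in LIGHT and 3616 ± 1186 TPM in control tumours (SD, n = 3 each), a ratio of 1.91. The log2 fold change was 0.95 (SE 0.26, limma adjusted p = 0.0359). The call was lost in 10 of 18 alternative settings, among them TMM scaling (limma adjusted p = 0.0833) and the fits without control replicate 1 (0.0888), control replicate 2 (0.106), LIGHT replicate 2 (0.0964) or LIGHT replicate 3 (0.107). The log2 fold change stayed between 0.78 and 1.20 in all 18.

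**Figure D1:**
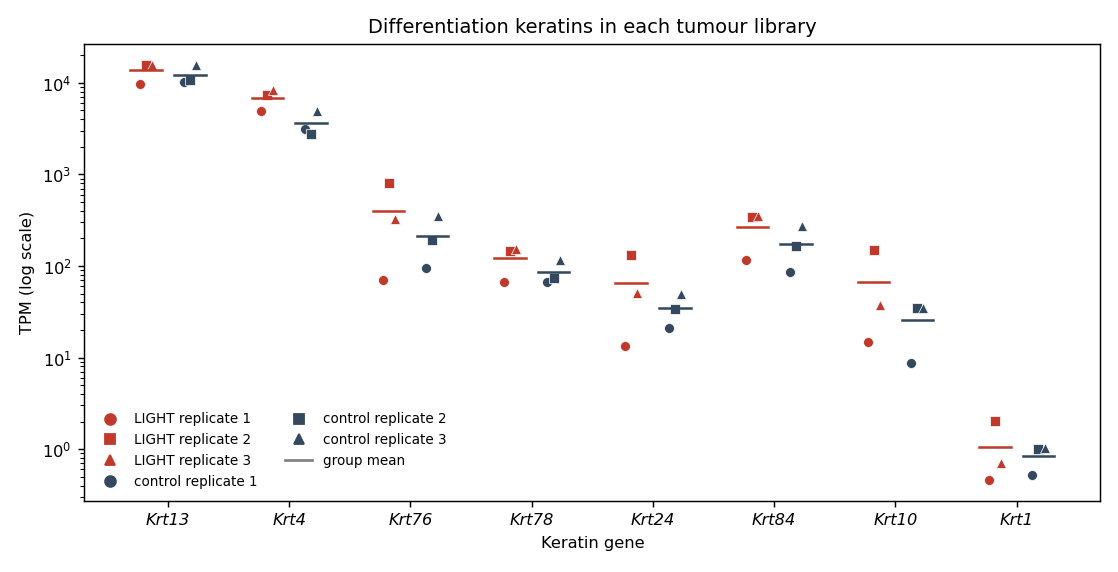
TPM of the 8 differentiation keratins (log axis) in each library, with LIGHT tumours in red, control tumours in blue, a symbol for each replicate and a bar for the group mean. Krt4 is the gene whose LIGHT points all lie above the control points, and replicate 1 is the lowest LIGHT point of every gene.

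The balance within the mucosal pair did not overlap between the groups either. The ratio of Krt4 to Krt13 TPM was 0.511, 0.471 and 0.535 in LIGHT tumours and 0.310, 0.258 and 0.320 in control tumours. A scale factor shared by all genes of a library cancels in such a ratio. On the log2(TPM + 1) scale the ratio was -0.99 ± 0.09 in LIGHT and -1.76 ± 0.17 in control tumours (SD, n = 3 each), a difference of 0.78. A two-sided exact permutation test gave p = 0.1, the smallest that 20 assignments of the 6 libraries allow, and 0.4 after Benjamini-Hochberg adjustment over the 4 ratios compared.

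The skin pair stood at far lower levels. Krt10 was at 14.7, 149.6 and 37.2 TPM in LIGHT tumours, against 8.64, 34.5 and 34.5 TPM in control tumours. LIGHT replicate 2 was high and control replicate 1 low, and the groups overlapped (log2 fold change 0.96, SE 0.82, limma adjusted p = 0.434). Without LIGHT replicate 2 the log2 fold change of Krt10 was 0.09. Krt1 was at 0.46, 2.02 and 0.71 TPM in LIGHT tumours and at 0.52, 1.00 and 1.03 TPM in control tumours (log2 fold change 0.10, SE 0.27, limma adjusted p = 0.83). Krt1 TPM were thus 0.0135 to 0.0314 of Krt10 TPM in LIGHT libraries and 0.0290 to 0.0602 in control libraries, although the pair is made together in skin. The exact permutation test of this ratio on the log2 scale gave p = 0.4 (0.5 adjusted).

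Mucosal and skin keratins were then set against each other. The mean log2(TPM + 1) of the 6 mucosal and papilla keratins minus that of the skin pair was 5.83, 5.44 and 6.44 in LIGHT tumours and 6.14, 5.45 and 6.13 in control tumours. These values overlapped, and their group means differed by -0.0026. Each side taken alone also overlapped between the groups. The mucosal and papilla mean averaged 0.53 higher in LIGHT tumours and the skin mean 0.53 higher, so these differences cancelled. The skin difference came mostly from Krt10 (log2 fold change 0.96), with Krt1, near 1 TPM, at 0.10. Single pairs moved in opposite directions, and neither difference passed its test. Measured as a difference of log2(TPM + 1), which is smaller than the log2 ratio of TPM because Krt1 is near 1 TPM, Krt4 over Krt1 was 11.75 ± 0.51 in LIGHT and 10.90 ± 0.43 in control tumours (SD, n = 3 each, exact permutation p = 0.2, adjusted 0.4). Krt13 over Krt10 on the same scale was 8.22 ± 1.36 in LIGHT and 9.01 ± 0.93 in control tumours (SD, n = 3 each, exact permutation p = 0.5, adjusted 0.5).

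**Figure D2:**
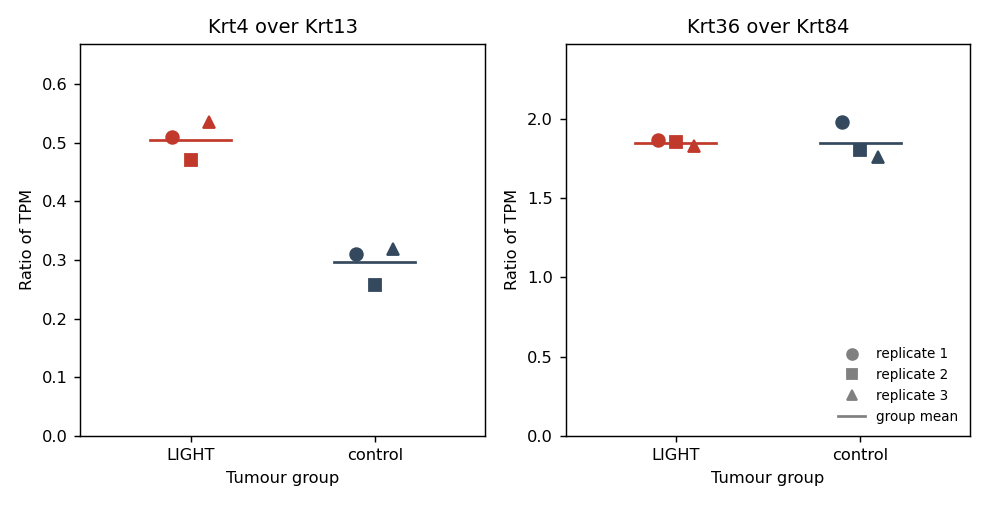
Ratios of TPM for Krt4 to Krt13 and for Krt36 to Krt84, with LIGHT tumours in red left of control tumours in blue, a symbol for each replicate and a bar for the group mean. The Krt4 to Krt13 ratio lies between 0.471 and 0.535 in LIGHT and between 0.258 and 0.320 in control libraries, while the Krt36 to Krt84 ratio overlaps between the groups.

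The other mucosal and papilla members differed widely among libraries of the same group. Krt76 was at 70.8, 814 and 326 TPM in LIGHT tumours, against 94.1, 192 and 353 TPM in control tumours. Its highest LIGHT library had 11.5 times the TPM of its lowest, and the groups overlapped (log2 fold change 0.52, SE 0.84, limma adjusted p = 0.693). Within each group Krt24 had the same order of libraries, with 13.4, 131 and 50.8 TPM in LIGHT tumours and 21.0, 33.7 and 49.1 TPM in control tumours (log2 fold change 0.46, SE 0.72, limma adjusted p = 0.685). Without LIGHT replicate 2 the log2 fold changes of Krt76 and Krt24 were -0.28 and -0.30, so the sign of both rests on that library.

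Krt84, the papilla keratin, was at 117 TPM in LIGHT replicate 1 and at 345 and 348 TPM in the other LIGHT libraries. In control tumours it was at 85.6, 167 and 273 TPM. The groups overlapped (log2 fold change 0.61, SE 0.51, limma adjusted p = 0.425). The log2 fold change of Krt84 was 1.13 without LIGHT replicate 1 and 0.18 without control replicate 1, not called in either. Krt78 was at 66.9, 145 and 153 TPM in LIGHT tumours and at 66.4, 74.0 and 116 TPM in control tumours (log2 fold change 0.45, SE 0.33, limma adjusted p = 0.364). Without LIGHT replicate 1 Krt78 passed the threshold as higher (log2 fold change 0.83, limma adjusted p = 0.0437).

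**Figure D3:**
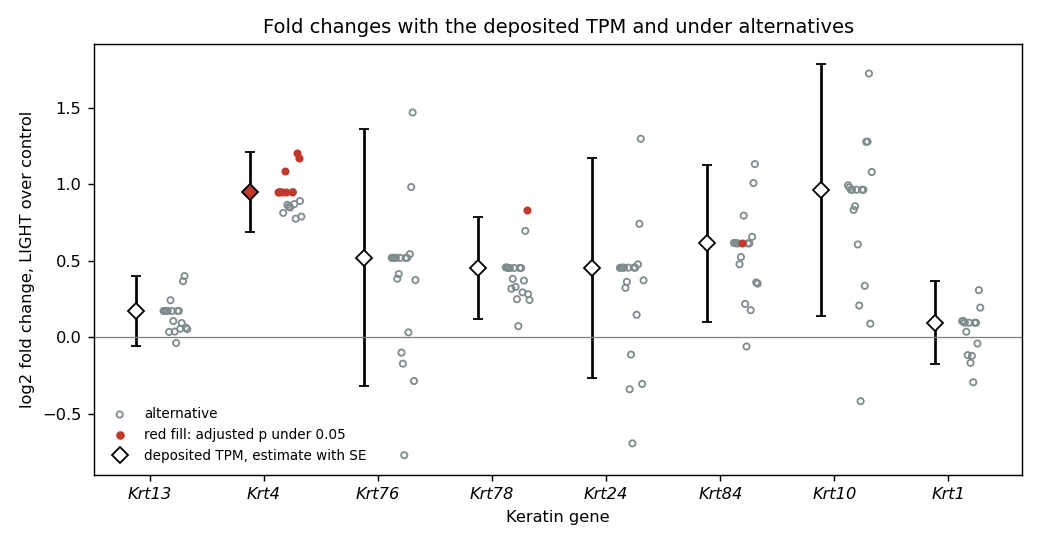
Log2 fold change of LIGHT over control tumours for each member, as an estimate with its SE from the deposited TPM (diamonds) and under up to 18 alternative settings (circles), with red fill where the limma adjusted p is under 0.05. Krt4 is the member called with the deposited TPM, and the alternatives for Krt76 and Krt24 fall on both sides of 0.

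The order of levels was the same in both groups for the 5 highest members, from Krt13 through Krt4, Krt76 and Krt84 to Krt78. Krt13 and Krt4 did not overlap each other or any other member. The ranges of Krt76 and Krt84 overlapped in both groups, as did those of Krt84 and Krt78. Krt24 and Krt10 overlapped each other and changed places between the groups. Krt1 was the lowest throughout.

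The spread between libraries was wide for these genes. The SD of log2(TPM + 1) over the 3 LIGHT libraries had a median of 0.78 over the members and 0.14 over all genes tested. Over the 3 control libraries it was 0.52 for the members and 0.13 for all genes. In LIGHT tumours each member had a larger SD than at least 93.99% of genes tested, and Krt76, with 1.77, had a larger SD than 99.9%. In control tumours Krt1 had a larger SD than 82.4% of genes tested and Krt13 than 91.9%. For the other members this was at least 95.5%. The members also shared their extreme libraries. LIGHT replicate 1 was the lowest LIGHT library for 8 of 8 members, but for 22.1% of all genes tested. Control replicate 1 was the lowest control library for 7 of 8, with Krt4 the exception, and for 22.2% of all genes. Control replicate 3 was the highest control library for 8 of 8 members and for 18.1% of all genes. Many other genes had the opposite order. Of all genes tested, 55.0% were highest in replicate 1 among LIGHT libraries. Among control libraries 52.7% were highest in replicate 1 and 50.5% were lowest in replicate 3. The highest LIGHT library was replicate 2 for Krt76, Krt24, Krt10 and Krt1, and replicate 3 for Krt13, Krt4, Krt78 and Krt84.

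**Figure D4:**
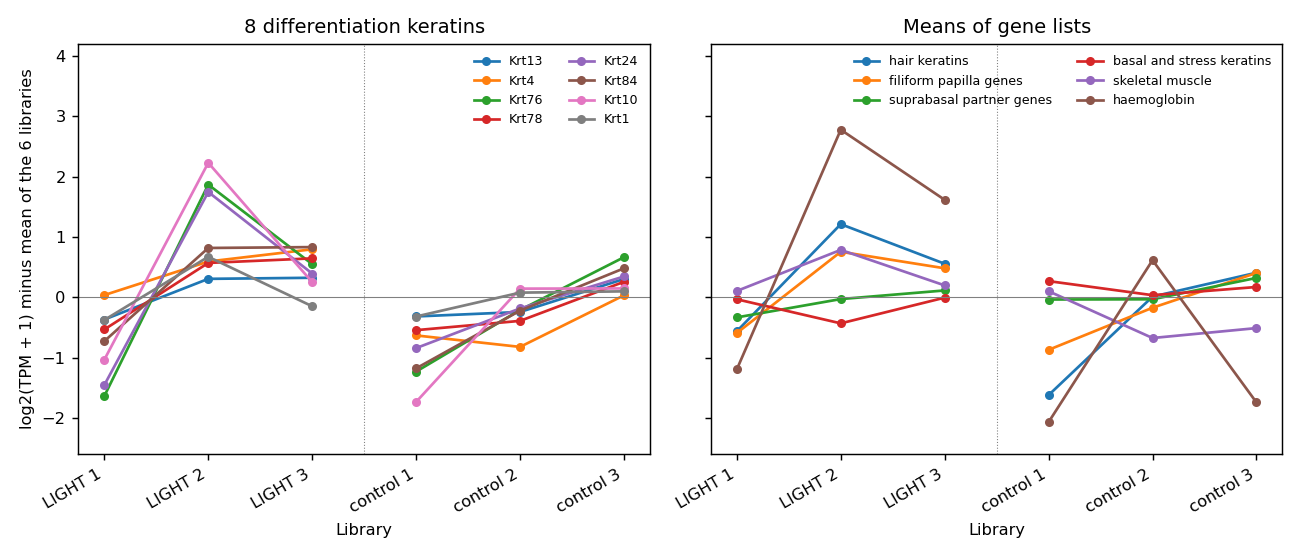
Log2(TPM + 1) minus its mean over the 6 libraries, for each member (left panel) and for the mean of 6 gene lists (right panel), with LIGHT libraries left of control libraries; lines only join the values of a gene or list within a group. Replicate 1 is the lowest LIGHT library for 8 of 8 members and the lowest control library for 7 of 8 (all but Krt4). The means of the hair keratin, filiform papilla, haemoglobin and suprabasal partner lists are also lowest in replicate 1 of both groups. For the suprabasal partner list the control values are close, at 7.386 in replicate 1 and 7.390 in replicate 2. The skeletal muscle and basal and stress keratin lists do not have replicate 1 lowest in both groups.

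Genes with the most similar profile were found by the root mean square difference of log2(TPM + 1) over the 6 libraries, after centring each gene on its mean. For Krt84 the nearest of all genes tested was Krt36, the type I hair-type keratin of filiform papillae and nails (difference 0.05, where the median gene was at 0.81). Krt36 was at 219, 640 and 637 TPM in LIGHT tumours and at 169, 301 and 479 TPM in control tumours. The ratio of Krt36 to Krt84, chosen after its values were seen, was 1.87, 1.86 and 1.83 in LIGHT tumours and 1.98, 1.80 and 1.76 in control tumours. Its extremes differed 1.13 times, while Krt84 itself differed 3.18 times among control libraries and 2.96 times among LIGHT libraries. Lce1g, a late cornified envelope gene, and Serpinb3c came next for Krt84 (0.15 and 0.18). Krt76 and Krt24 were each other's nearest genes (0.23). Krt24 remained nearest to Krt76 in 7 of 10 alternatives, but Krt76 remained nearest to Krt24 in 4 of 10. Lyg1 and Tgm7, a transglutaminase, followed for both. For Krt24 the next was Crnn, encoding cornulin of squamous mucosa, at 16.6, 91.9 and 48.6 TPM in LIGHT tumours and 23.2, 35.3 and 55.1 TPM in control tumours.

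Krt4 lay nearest to Bspry (0.08), Serpinb12 (0.11) and Them5 (0.12). These profiles were matched over both groups, so the group difference they share with Krt4 follows from how they were picked. Serpinb12, a serine protease inhibitor of epithelia, was at 505, 700.2 and 849 TPM in LIGHT tumours and at 376, 309 and 508 TPM in control tumours. Those groups overlapped by a few TPM. Krt13 lay nearest to Spata33, Gramd1c and Il1r2, a decoy receptor of interleukin-1 (0.08, 0.10 and 0.10). Krt78 lay nearest to Acp7, Aloxe3, an epidermal lipoxygenase, and Clec4a2 (0.10, 0.11 and 0.12). Krt10 lay nearest to the hair keratin Krt35 (0.33), then Lypd2 and Gm11568. The number of genes within 0.2 was 126 for Krt13, 32 for Krt78, 22 for Krt4 and 9 for Krt84. It was 0 for Krt76, Krt24 and Krt10.

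The promoters of Krt84 and Krt36 are shown because their levels kept a nearly fixed ratio, with Krt13 as the most abundant member and Krt76 as the most variable in LIGHT libraries (in control libraries Krt10 varied more, with SDs of log2(TPM + 1) of 1.09 for Krt10 and 0.95 for Krt76). The RefSeq windows (GRCm38.p6) hold 250 bases before and 50 after the annotated start, 5′ to 3′ on the minus strand, which carries all 4 genes. Krt84 is at chr15:101532771-101533070, Krt36 at chr11:100105577-100105876, Krt13 at chr11:100121517-100121816 and Krt76 at chr15:101892871-101893170. Capitals mark matches on either strand. The motif searched for AP-1 was TGANTCA. That for KLF factors, which bind GC-rich boxes, was CACCC. That for the grainyhead-like (GRHL) factors of epithelia was AACCGGTT. The TATA box, which positions the start of transcription, was searched as TATAAA.
Krt84: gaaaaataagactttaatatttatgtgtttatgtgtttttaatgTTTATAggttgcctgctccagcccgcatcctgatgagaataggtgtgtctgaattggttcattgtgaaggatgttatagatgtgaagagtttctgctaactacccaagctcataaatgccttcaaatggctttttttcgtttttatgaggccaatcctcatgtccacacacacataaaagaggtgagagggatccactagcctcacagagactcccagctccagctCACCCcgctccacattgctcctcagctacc
Krt36: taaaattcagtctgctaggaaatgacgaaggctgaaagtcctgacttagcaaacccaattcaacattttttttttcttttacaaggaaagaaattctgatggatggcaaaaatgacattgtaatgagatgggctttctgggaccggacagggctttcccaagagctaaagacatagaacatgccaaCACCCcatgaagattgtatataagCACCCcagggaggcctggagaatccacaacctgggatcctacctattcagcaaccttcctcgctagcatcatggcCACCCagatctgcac
Krt13: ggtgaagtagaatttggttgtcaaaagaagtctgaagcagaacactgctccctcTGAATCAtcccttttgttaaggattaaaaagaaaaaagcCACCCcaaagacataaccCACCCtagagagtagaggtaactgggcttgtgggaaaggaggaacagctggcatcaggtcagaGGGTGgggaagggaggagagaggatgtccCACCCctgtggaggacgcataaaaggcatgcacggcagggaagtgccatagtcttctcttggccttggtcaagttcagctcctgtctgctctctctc
Krt76: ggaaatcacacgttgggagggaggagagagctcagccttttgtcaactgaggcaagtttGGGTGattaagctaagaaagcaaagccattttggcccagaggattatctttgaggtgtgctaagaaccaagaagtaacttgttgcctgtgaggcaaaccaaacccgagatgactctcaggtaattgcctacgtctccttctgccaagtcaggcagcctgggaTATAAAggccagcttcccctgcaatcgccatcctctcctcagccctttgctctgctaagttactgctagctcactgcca

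Matches did not overlap in these windows. For Krt36, Krt10 and Krt78 the annotated start used lay inside the gene span, not at its 5′ end. The Krt36 gene runs from 100102012 to 100109487. The Krt10 window is at chr11:99389315-99389614 and the Krt78 window at chr15:101954238-101954537. Krt13 held 1 AP-1 match, at position -196 counted from the start base, and 4 KLF matches. Krt36 held 3 KLF matches. Krt84 held 1, lying 20 bases after the start, together with 1 TATAAA match on the opposite strand at -206, far from the start. Krt76 had TATAAA at -29 and 1 KLF match, and Krt10 had TATAAA at -26 and 1 KLF match. Krt24 held 1 KLF match and Krt78 none of the 4 motifs. GRHL had no match in any of these. Among 32851 promoter windows of the table, 57.5% held the KLF motif, 13.6% TATAAA, 7.81% the AP-1 motif and 0.146% the GRHL motif. The table matched 6 of the 8 members, without Krt4 and Krt1.

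The filiform papilla list held Krt84, Krt36, Krt35, the papilla proteins Tchh (trichohyalin) and Rptn (repetin), and the transcription factors Hoxc13, Foxn1 and Msx2. All 8 were tested and 0 were called, nor did any reach an unadjusted limma p under 0.05. Their median log2 fold change was 0.46. Of 12 hair keratins, which include Krt36 and Krt35, 11 were listed and 10 tested, and 0 were called (0 at an unadjusted limma p under 0.05), with a median of 0.90. LIGHT replicate 1 was the lowest and LIGHT replicate 2 the highest LIGHT library for 10 of these 10, and control replicate 1 was the lowest control library for 9. Krt34, a type I hair keratin, was at 21.1, 102 and 53.3 TPM in LIGHT tumours and at 7.07, 29.2 and 51.7 TPM in control tumours. Hair keratins are close paralogs and can share reads. The keratins of the inner sheath of hair follicles were near 0, with 7 of 9 listed, 0 tested, and a sum of 0.46 to 2.63 TPM in LIGHT and 0.97 to 1.08 TPM in control libraries.

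Genes of host tongue other than mucosa also differed between libraries. The summed TPM of 19 skeletal muscle genes ranged from 5940 to 10304 in LIGHT and from 3785 to 6434 in control libraries. Their median log2 fold change was 0.62, against 0.09 over all genes tested. All LIGHT libraries lay above all control libraries for 7 of the 19, where this held for 29.6% of all genes tested. Of the 19, 1 was called higher, Tcap (limma adjusted p = 0.0246). Without control replicate 1 this count was 11, without LIGHT replicate 1 it was 5, without either LIGHT replicate 2 or 3 it was 2, and without control replicate 2 or 3 it was 0. Acta1, skeletal muscle actin, was at 1343, 1744 and 1997 TPM in LIGHT tumours and at 1672, 952 and 1032 TPM in control tumours. Control replicate 1 was thus the highest control library for Acta1 and the lowest for 7 of the 8 keratins. LIGHT replicate 2 was the highest for both the muscle sum and Krt76. The 4 haemoglobin genes summed to 119 to 2083 TPM in LIGHT and 69.8 to 452 TPM in control libraries. The sum was highest in LIGHT replicate 2 and lowest in replicate 1 of each group. The median log2 fold change of the 4 was 2.17. Haemoglobin had 0 of 4 called, and 0 at an unadjusted limma p under 0.05, but 4 of 4 were called higher without LIGHT replicate 1. With the mean log2 level of the muscle genes as a covariate, the log2 fold change of Krt4 was 0.87 (limma adjusted p = 0.301). With that of the haemoglobin genes it was 0.85 (0.164). Of 12 salivary gland genes 7 were listed and 1 tested, Amy1, which was higher (limma adjusted p = 0.0241) but did not pass without control replicate 1, without control replicate 3 or without any LIGHT replicate. Lpo averaged 0.42 TPM in LIGHT and 0.15 TPM in control tumours, and Bpifa2 was at 0 throughout. Aqp5 went the other way, at 0.06, 0.16 and 0.06 TPM in LIGHT and 0.23, 0.22 and 0.28 TPM in control tumours. Lpo and Aqp5 were too low to be tested. Of 10 taste bud genes 9 were listed, 3 tested and 2 higher, Plcb2 and Krt8, where 17.7% of all genes tested passed as higher. Krt8 is also counted among the simple epithelial keratins below. Tas1r3, also tested, was not called (limma adjusted p = 0.332). Tas1r2 averaged 0.30 TPM in LIGHT and 0.62 TPM in control tumours. Trpm5 did not exceed 0.10 TPM. The part of these tissues in the keratin values was not tested beyond those covariates.

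Of 25 suprabasal partner genes 24 were tested, of which 1 passed as higher and 6 as lower. Of all genes tested, 17.7% passed as higher and 5.41% as lower. The median log2 fold change of the 24 was -0.33, against 0.09 over all genes tested. Leaving out control replicate 3 brought the number lower to 2, and leaving out control replicate 2 brought it to 3. Leaving out any of control replicates 1 and 2 and LIGHT replicates 2 and 3 brought the number higher to 0, while it was 2 on leaving out either of the remaining libraries. The lower genes were Cnfn, Cdsn, Krtdap, Lypd3, Sprr3 and Casp14. Cdsn, encoding corneodesmosin of the cornified layer, was at 148, 231 and 233 TPM in LIGHT tumours and at 356, 341 and 545 TPM in control tumours (log2 fold change -1.01, SE 0.23, limma adjusted p = 0.019). Sprr3, a small proline-rich protein of mucosa, was at 1611, 756 and 1886 TPM in LIGHT tumours and at 2811, 3011 and 3792 TPM in control tumours (limma adjusted p = 0.0265). The groups did not overlap for either gene. All LIGHT libraries lay below all control libraries for 11 of the 24, where this held for 11.6% of all genes tested. They lay above for 1 of the 24, where this held for 29.6% of all genes tested. The higher gene was Dsg1a, a desmosomal cadherin, at 35.6, 55.0 and 54.9 TPM in LIGHT and 22.7, 26.8 and 36.9 TPM in control tumours (limma adjusted p = 0.0468). Sprr3, Casp14, Dsg1a and Lor are named here with their values already known. Lor, encoding loricrin, was at 527, 1632 and 1388 TPM in LIGHT and 406, 523 and 758 TPM in control tumours (limma adjusted p = 0.139, not called).

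As a share of all keratin TPM, the 8 members took 30.4%, 51.1% and 43.1% in LIGHT tumours and 24.9%, 29.2% and 36.3% in control tumours. The 7 basal and stress keratins, Krt5, Krt14, Krt15, Krt6a, Krt6b, Krt16 and Krt17, took 68.1%, 45.3% and 54.4% in LIGHT and 73.9%, 68.9% and 61.4% in control tumours. These 2 sets are shares of the same total and make up nearly all of it. When either share rises the other must therefore fall, and they are not separate observations. Most of the members' share was Krt13 and Krt4. All keratins together were 4.79% to 5.83% of all TPM in LIGHT and 4.76% to 5.88% in control libraries. Of the 7 basal and stress keratins, 0 were higher and 1 lower, Krt6a (limma adjusted p = 0.0406), a call lost without any control replicate, without LIGHT replicate 2 and without LIGHT replicate 3. Krt6b, a close paralog, was at 4880.4, 1978 and 4509 TPM in LIGHT and at 6372, 4648 and 6379 TPM in control tumours. LIGHT replicate 2 thus had the lowest Krt6b and Krt14 and the highest Krt76, Krt24, Krt10 and Krt1. Of 11 basal keratinocyte genes, which include Krt5 and Krt14, 0 were called either way (limma, unadjusted p under 0.05 for 3 of them: Itga3, Krt14 and Trp63). Leaving out control replicate 1 brought the number called higher to 1, and TMM scaling the number lower to 3. In the TMM setting 2005 of the 13149 genes tested were lower.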

How the data were processed

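The deposited values are TPM per gene for 6 tumour libraries, rounded by the authors to 2 decimals, with 1 column per library per the file headers. Per the submitters' processing notes, HISAT, Bowtie2 and GRCm38.p6 were used. Which program made the TPM, and from which gene models, is not given in those sources. Ribosomal RNA was depleted, per the labels' protocols. Because TPM are shares of a fixed total, depth is unknown and abundant genes that rise lower the others.

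A filter kept the 13167 genes that reached 1 TPM in 3 or more libraries. Their log2(TPM + 1) values were fitted with limma 3.58.1 (R 4.3.3, eBayes with a trend, two-sided), and calls have a Benjamini-Hochberg adjusted p under 0.05 over all of them. The added 1 shrinks the fold change of low genes. Ratios of members had exact permutation tests (scipy 1.17.1). Lists are described by counts and medians. The members, lists and tests were chosen with earlier results of these data known. Named genes were the members, Tnfsf14, up to 4 genes per list by smallest p, keratins averaging at least 100 TPM, nearest profiles and the 2 most abundant muscle, salivary and taste genes. Genes outside this rule (Sprr3, Casp14, Dsg1a, Lor, Klf4, Grhl3, Grhl1, Sox2, Krt12, Bpifa2, Aqp5, Tas1r2 and Trpm5) were added with their values known. The fit was tested on simulated data. No 2 libraries held identical values. Alternatives were 2 pseudocounts (0.1 and 0.5), no filter, a filter at 5 TPM, TMM factors, quantile normalization, the replicate block, 3 covariates, limma without the trend, robust limma and each library left out. Figures were drawn with matplotlib 3.10.9.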

Additional observations from a re-analysis of the deposited data

How the results depend on the processing

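TPM hold no depth, so low genes such as Krt1 have no counting error to set beside their values, and 3 libraries a group limit all calls. Genes higher numbered 1410 after quantile normalization, 510 with the skeletal muscle covariate and 946 with the haemoglobin covariate, against 2325, and 1145 to 1888 with a library left out. Genes lower numbered 2005 (TMM), 1813 (quantile), 77 (muscle) and 203 (haemoglobin), against 712, and 314 to 773 with a library left out. Members higher numbered 0 with no filter, TMM, the muscle, basal keratinocyte or haemoglobin covariate or robust limma, and 0 to 2 with a library left out. Krt4 kept its direction but not its call with no filter (log2 fold change 0.95), TMM (0.81), the muscle (0.87), basal (0.85) and haemoglobin (0.85) covariates and robust limma (0.95), and spanned 0.78 to 1.20 with a library left out. Its limma adjusted p ranged from 0.0177 to 0.301 over all alternatives. With a library left out Krt78 spanned 0.24 to 0.83, Krt84 0.18 to 1.13, Krt10 0.09 to 1.72 and Krt13 0.05 to 0.40.

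All members but Krt4 and Krt78 changed sign in some alternative. With the haemoglobin covariate the log2 fold change was -0.036 for Krt13, -0.77 for Krt76, -0.69 for Krt24, -0.059 for Krt84, -0.42 for Krt10 and -0.29 for Krt1. With the muscle covariate it was -0.10 for Krt76, -0.34 for Krt24 and -0.17 for Krt1, and with the basal covariate -0.17, -0.11 and -0.12 for these. Krt1 was at -0.12 after quantile normalization. With a library left out Krt76 spanned -0.28 to 1.47, Krt24 -0.30 to 1.30 and Krt1 -0.039 to 0.31. Krt1 could not be tested at the 5 TPM filter or on leaving out LIGHT replicate 2, control replicate 2 or control replicate 3. Other genes changed sign with the haemoglobin covariate (Krt35 -0.024, Foxn1 -0.00094, Krt36 -0.031, Krt18 0.010, Hbb-bs -0.060, Hba-a1 -0.24, Krt16 0.19), the muscle covariate (Krt32 -0.11, Acta1 -0.00099, Tnnt3 -0.0023), quantile normalization (Tas1r3 -0.069) or TMM (Krt5 -0.12). With a library left out Krt18 spanned -0.38 to 0.15, Krt5 -0.097 to 0.092 and Krt16 -0.44 to 0.045. Hbb-bs and Hba-a1 are part of the haemoglobin covariate, and Acta1 and Tnnt3 are part of the muscle covariate. Their change with their own covariate follows from that design. The causes of the other changes were not tested.

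Suprabasal partner genes higher numbered 0 with no filter, TMM, quantile, each of the 3 covariates, no trend or robust limma, and 0 to 2 with a library left out. Those lower numbered 3 with no filter, 0 with muscle and 1 with haemoglobin, and 2 to 6 with a library left out. Regulators higher numbered 0 with muscle and 1 with haemoglobin. Regulators lower numbered 10 (TMM), 9 (quantile), 1 (muscle) and 1 (haemoglobin), and 1 to 3 with a library left out. The replicate numbers are not stated to mark pairs and were not taken as pairs. Same-numbered libraries of the 2 groups had correlations of their deviations of 0.370, 0.237 and 0.0099. LIGHT replicates 2 and 3 did not correlate best with their own number. Such correlations over 3 libraries a group cannot exclude pairing. With the replicate block 2325 genes were higher and 907 lower, 2 members were higher (Krt4, and Krt84 with log2 fold change 0.61, limma adjusted p = 0.0365), as were 3 suprabasal partner genes, 3 filiform papilla genes, 3 hair keratins and 4 haemoglobin genes, and 5 regulators were lower. The pair of Krt84 and Krt36 stayed nearest in 9 of 10 alternatives, Krt4 and Bspry in 8, Krt10 and Krt35 in 5, Krt78 and Acp7 in 3, and Krt13 and Spata33 in 2.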

Other observations

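Simple epithelial keratins are made in glands and single-layered epithelia. Of 6 fixed, 5 were listed and 4 tested, and 2 passed as higher (3 without control replicate 3) and 0 as lower (0 at an unadjusted limma p under 0.05). The shares over all genes tested were 17.7% higher and 5.41% lower. Krt8 is the gene already counted among the taste bud genes above. Krt8 was at 55.9, 61.7 and 56.9 TPM in LIGHT tumours and at 29.4, 14.5 and 17.8 TPM in control tumours (log2 fold change 1.51, SE 0.22, limma adjusted p = 0.00462). Krt7 was at 14.5, 17.7 and 14.8 TPM in LIGHT and at 5.25, 3.33 and 7.39 TPM in control tumours (log2 fold change 1.44, SE 0.23, limma adjusted p = 0.00552). Krt18, the type I partner of Krt8, was at 60.0, 72.0 and 57.4 TPM in LIGHT and at 104, 49.7 and 64.4 TPM in control tumours (limma adjusted p = 0.713, not called). Neither Krt8 nor Krt7 had LIGHT replicate 1 far below the other LIGHT libraries.

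Of 5 other epidermal keratins, 2 were tested. Krt80 was lower in LIGHT tumours (138, 163 and 175 TPM, against 216, 234 and 297 TPM in control tumours, limma adjusted p = 0.0173). Krt79 was higher (3.23, 5.27 and 6.30 TPM in LIGHT and 1.97, 2.51 and 1.42 TPM in control tumours, limma adjusted p = 0.0199), a call lost on leaving out LIGHT replicate 2, LIGHT replicate 3 or control replicate 3. Krt12, the corneal keratin, was chosen after its values were seen: it was listed at 0, 0.07 and 0 TPM in LIGHT and at 1.75, 1.58 and 1.51 TPM in control tumours.

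Among 28 regulators of keratinocyte differentiation, all tested, 3 passed as higher and 3 (Elf3, Grhl1 and Sox2) as lower. The shares of all genes tested were 17.7% higher and 5.41% lower. The median log2 fold change of the 28 was -0.12, against 0.09 over all genes tested. Leaving out replicate 2 or 3 of either group brought the number lower to 1, and leaving out control replicate 1 brought it to 2. Leaving out control replicate 2 or LIGHT replicate 3 brought the number higher to 2. Elf3, an epithelial ETS factor, was at 191, 193 and 173 TPM in LIGHT and at 298, 284 and 304 TPM in control tumours (log2 fold change -0.67, limma adjusted p = 0.00225). Jag1, a Notch ligand, was at 48.2, 39.4 and 46.2 TPM in LIGHT and at 29.5, 28.1 and 25.5 TPM in control tumours (log2 fold change 0.66, limma adjusted p = 0.00566). Cebpa and Maf were higher as well (limma adjusted p = 0.00874 and 0.0152), the call of Maf being lost on leaving out LIGHT replicate 3 or control replicate 2 or 3. Klf4 and Grhl3, activators of late differentiation that, like Grhl1 and Sox2, are named with their values already known, were not called (limma adjusted p = 0.117 and 0.0715). After TMM scaling 10 of the 28 were lower, as were 2005 of the 13149 genes tested in that setting.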
